A study of Mus musculus with 9 samples.

Results

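Superoxide dismutases and catalase are the native enzymes whose activities the nanozyme of this series, PepNzymeSOD-CAT, is named after. The 4 mouse genes Sod1, Sod2, Sod3 and Cat were taken by symbol from a table of 25526 gene names, and all 4 passed the filter on low values that left 14540 genes for testing. The table gives FPKM, a fragment count corrected for the length of the transcript and the size of the library, for lungs of 9 mice. The groups of 3 are called normal (lung of normal mice), model (pulmonary fibrosis model) and nanozyme (treated with PepNzymeSOD-CAT, an inhalable polypeptide assembly that mimics both enzymes). The inducer of fibrosis, the dose, the route and time of treatment, and the strain, sex and age of the mice are not given in the sources used here, and neither is whether the nanozyme mice received the same inducer as the model mice.

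Superoxide dismutases convert superoxide to hydrogen peroxide and oxygen, and catalase breaks hydrogen peroxide down to water and oxygen, so the enzymes act in sequence. Sod1 encodes the copper and zinc enzyme of the cytosol, Sod2 the manganese enzyme of the mitochondrial matrix, and Sod3 a secreted copper and zinc enzyme that binds the extracellular matrix and is abundant in lung and vessel walls. Cat encodes a haem enzyme held in peroxisomes. Sod2 is a textbook target of NF-kB, the transcription factor family induced by inflammatory cytokines.

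The lung markers Sftpc, Scgb1a1, Ager, Cldn5 and Foxj1 were present in all 9 libraries, the lowest value being 36.8 FPKM for Foxj1 in a model library. FPKM sums ran from 443746 to 519772 per library, and the read depth behind them is unknown. Nanozyme replicate 2 stood apart from its group: on the first principal component (62.8% of the variance) it lay at 43.3, within the model range of 39.5 to 61.2, whereas nanozyme replicates 1 and 3 lay at -14.4 and -9.7 and the normal libraries between -63.5 and -54.8. Its mean correlation was 0.971 with the model libraries and 0.921 with the other nanozyme libraries. Whether its label and its dosing are as stated was not tested, so results that rest on this library are given with and without it. The nanozyme libraries are numbered apart from the others, so any separate handling of them cannot be told apart from the treatment. Each library is 1 mouse by the labels. Normal replicate 3 lay between normal replicates 1 and 2 at some genes that differed widely between them. Bpifa1 was at 4599, 2.34 and 2131 FPKM in normal replicates 1 to 3, and Ltf at 300, 8.01 and 143 FPKM. Apoe did not follow this, at 185, 220.5 and 435.5 FPKM. Whether normal replicate 3 is independent of the other normal libraries was not tested. If it is not, the spread within normal lung is understated and the p-values against normal are too small.

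Of the 4 genes 3 have an entry in the RefSeq promoter table of build GRCm38.p6, and the 250 bases before each start site are shown because Sod1 and Cat fell in the model group while Sod2 rose. Capitals mark the GC box in the form GGGCGG, the box named CCAAT after its letters, the core promoter element TATAAA (called the TATA box below) and matches to the kappaB consensus bound by NF-kB, each on either strand and with overlapping matches joined.
Sod1, chr16:90220512-90220761, plus strand: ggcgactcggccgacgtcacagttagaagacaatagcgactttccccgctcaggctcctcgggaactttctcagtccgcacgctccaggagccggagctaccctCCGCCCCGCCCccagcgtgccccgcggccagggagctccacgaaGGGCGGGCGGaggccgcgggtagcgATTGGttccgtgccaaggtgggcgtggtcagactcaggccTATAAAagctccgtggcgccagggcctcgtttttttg
Sod2, chr17:13007589-13007838, plus strand: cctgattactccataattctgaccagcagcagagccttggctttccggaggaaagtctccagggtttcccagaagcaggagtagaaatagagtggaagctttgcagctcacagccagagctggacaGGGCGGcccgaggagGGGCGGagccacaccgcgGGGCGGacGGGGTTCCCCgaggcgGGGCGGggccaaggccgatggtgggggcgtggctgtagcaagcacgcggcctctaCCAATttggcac
Cat, chr2:103485154-103485403, minus strand: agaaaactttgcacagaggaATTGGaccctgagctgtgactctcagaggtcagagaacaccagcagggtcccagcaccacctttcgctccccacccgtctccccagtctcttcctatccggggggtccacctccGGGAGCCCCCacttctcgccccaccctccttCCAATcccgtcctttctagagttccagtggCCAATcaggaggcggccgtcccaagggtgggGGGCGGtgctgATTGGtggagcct

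All 3 windows are rich in G and C, at 66.4% for Sod1, 63.6% for Sod2 and 62.0% for Cat, against a median of 52.4% over 32851 promoters. The Sod2 window holds 4 GC boxes, 1 CCAAT box and no TATA box, the Sod1 window 4 GC boxes, of which neighbours overlap, 1 CCAAT box and 1 TATA box, and the Cat window 1 GC box and 4 CCAAT boxes. Of all promoter windows of this length 32.7% hold a GC box, 33.8% a CCAAT box and 12.4% a TATA box. A kappaB match lies 83 to 74 bases before the RefSeq start of Sod2 and another 116 to 107 bases before that of Cat, and 7.25% of all windows hold such a match. The core of the antioxidant response element (TGACNNNGC), bound by the NRF2 factor, matches once in the Sod1 window, as in 10.2% of all windows. The FoxO core (GTAAACA) is in none of the 3 windows and in 3.17% of all. These matches describe letters and not bound sites, and genes with the same kind of match moved in opposite directions below.

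By GENCODE vM21, on GRCm38, Sod1 spans chr16:90220754-90226329, Sod2 chr17:13006846-13040063 and Cat chr2:103453849-103485160, the last on the minus strand. GENCODE thus begins Sod2 upstream of the RefSeq start, and the Sod2 window printed above lies inside its span, while for Sod1 and Cat the sources differ by a few bases. The end of Sod1 overlaps Scaf4 on the other strand by 650 bases, and the strand setting of the counting is not given in the sources used here. Scaf4 was at 9.05 ± 0.545 FPKM in normal and 9.77 ± 1.56 FPKM in model lung (SD, n = 3 each), far below Sod1.

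Sod1 had the highest level of the 4 in every library, though in model replicate 3 it was at only 1.24 times the level of Sod2. In normal lung it was at 419, 417 and 439 FPKM in replicates 1 to 3. In the model libraries it was at 264, 271 and 176 FPKM, and in the nanozyme libraries at 337, 293 and 379 FPKM. The 3 groups do not overlap, with normal highest, nanozyme between and model lowest.

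Sod2 was the lowest of the 4 in normal lung and the only member to rise in the model. It was at 19.2, 20.7 and 19.7 FPKM in normal and at 96.4, 119 and 141 FPKM in model lung. Nanozyme replicates 1 and 3 were at 18.3 and 20.4 FPKM, while nanozyme replicate 2 was at 84.4 FPKM, below the lowest model library and far above every normal one.

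Sod3 showed no order of the groups. Its levels were 43.5, 67.2 and 54.0 FPKM in normal, 62.7, 25.2 and 59.9 FPKM in model and 60.4, 62.3 and 82.9 FPKM in nanozyme lung. The 3 groups overlap, and model replicate 2 was the lowest of the 9 libraries.

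Cat was at 126, 147 and 135 FPKM in normal and at 68.8, 43.2 and 53.3 FPKM in model lung. Nanozyme replicates 1 and 3 were at 124 and 104 FPKM, below the normal range and above the model range, and nanozyme replicate 2 at 60.1 FPKM, inside the model range. The variation coefficient within groups was small in normal lung (2.82% for Sod1, 3.87% for Sod2, 7.85% for Cat and 21.6% for Sod3, n = 3) and rose to 91.6% for Sod2 in the nanozyme group.

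**Figure D1:**
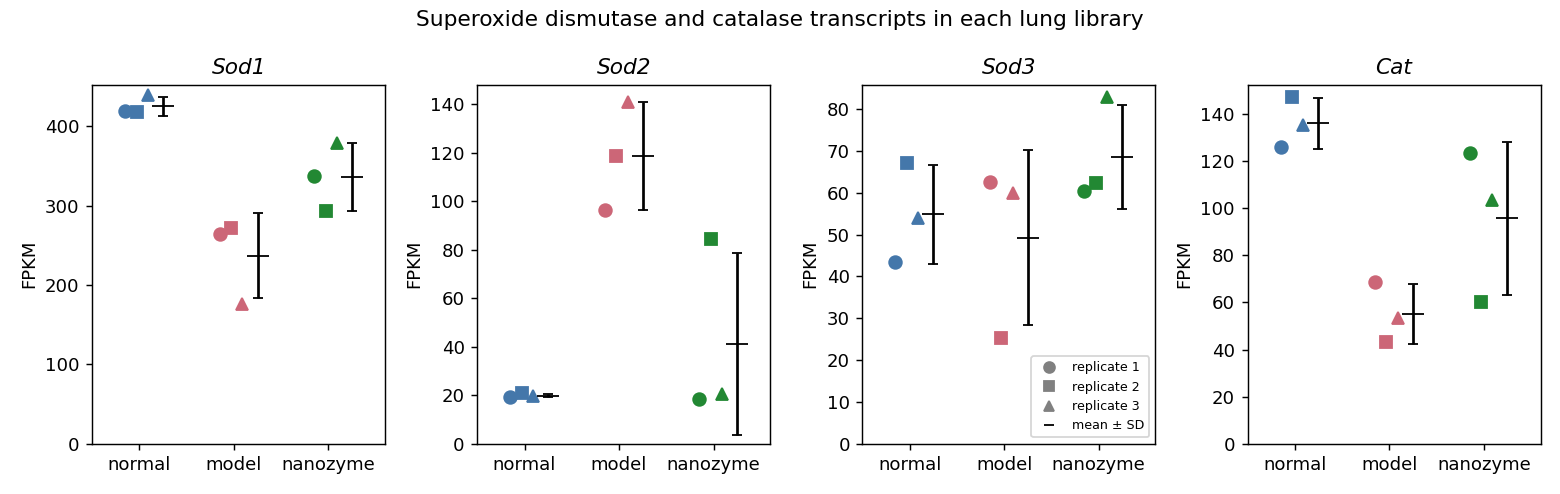
FPKM (vertical axes, from 0) of Sod1, Sod2, Sod3 and Cat in each library of the normal, model and nanozyme groups, with the mean and SD of 3 libraries beside the points. Nanozyme replicate 2 (square) lies at 84.4 FPKM for Sod2 and 60.1 FPKM for Cat, away from the other nanozyme libraries, while the groups overlap for Sod3.

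Between model and normal lung, 3 of the 4 enzymes changed. Sod2 rose 5.97-fold, from 19.9 ± 0.769 to 119 ± 22.4 FPKM (SD, n = 3 each), and this was a larger upward change than that of 97.6% of the tested genes. Cat fell to 0.405 of normal, from 136 ± 10.7 to 55.1 ± 12.9 FPKM, and Sod1 to 0.558 of normal, from 425.11 ± 11.997 to 237 ± 53.2 FPKM. Only 4.15% of tested genes had a lower change than Cat, and 11.2% a lower one than Sod1. On the log2(FPKM + 1) scale the changes were 2.50 ± 0.49 for Sod2 (limma, Benjamini-Hochberg adjusted p = 0.00566), -1.31 ± 0.27 for Cat (adjusted p = 0.0062) and -0.87 ± 0.18 for Sod1 (adjusted p = 0.00705), each ± SE. Sod3 did not pass, at 54.9 ± 11.8 against 49.3 ± 20.9 FPKM (-0.24, 95% interval -1.01 to 0.53, adjusted p = 0.595).

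Such calls were common: 40.1% of tested genes passed, 17.4% as higher and 22.7% as lower, and at 58.5% the normal and model libraries did not overlap. Among the 4 members 3 passed, 1 higher and 2 lower, and the same 3 did not overlap. The median change of all tested genes was -0.12. Sod1, Sod2 and Cat kept their direction and their call under all 20 alternatives of processing and left-out libraries. The direction of Sod3 did not hold: without model replicate 2 its change was 0.18 ± 0.20 (adjusted p = 0.527).

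Against model lung, the means of Sod1, Sod2 and Cat in the nanozyme group lay between those of the other groups. Mean Sod2 was 2.90 times lower, at 41.0 ± 37.6 against 119 ± 22.4 FPKM, mean Cat 1.74 times higher, at 95.7 ± 32.4 against 55.1 ± 12.9 FPKM, and mean Sod1 1.42 times higher, at 336 ± 42.9 against 237 ± 53.2 FPKM (SD, n = 3 each). None of the 4 passed with all 3 nanozyme mice, with log2 changes of -1.85 ± 0.49 for Sod2 (adjusted p = 0.181), 0.75 ± 0.27 for Cat (adjusted p = 0.183), 0.52 ± 0.18 for Sod1 (adjusted p = 0.182) and 0.56 ± 0.34 for Sod3 (adjusted p = 0.343) by limma. No gene of the 14540 passed (0%), although 3211 (22.1%) had an unadjusted p under 0.05. The change of Sod2 was lower than that of all but 0.76% of tested genes, and those of Cat and Sod1 were higher than 95.3% and 89.0% of them, beside a median of 0.09 over all genes. The groups did not overlap for Sod1 and Sod2, which was so for 16.4% of tested genes, and overlapped for Cat and Sod3.

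Without nanozyme replicate 2, which leaves 2 nanozyme mice, the calls of Sod2 and Cat changed. That library was singled out by its likeness to the model libraries in these same data. Leaving it out thus favours a larger difference from the model and a smaller spread. The p-values, intervals and counts of fits without it are descriptions and not independent tests. Sod2 was then lower by -2.54 ± 0.16 on the log2 scale (95% interval -2.91 to -2.18, adjusted p = 0.000252) and Cat higher by 1.05 ± 0.19 (0.61 to 1.49, adjusted p = 0.00832). Sod1 stood at 0.62 ± 0.19 (adjusted p = 0.0566) and Sod3 at 0.62 ± 0.39 (adjusted p = 0.293), neither of them passing. In that fit 12.5% of tested genes were higher and 9.64% lower. Sample weights, estimated from the same values, gave nanozyme replicate 2 the least weight of the 9 libraries (0.215) and normal replicate 3 the most (7.227). With them Sod2, Cat and Sod1 passed the threshold, with changes of -2.35, 0.85 and 0.65 and adjusted p of 0.014, 0.0242 and 0.0312 by limma. As the same library is weighted down, this is not separate from leaving it out. None of the other alternatives gave a call to any member, and the adjusted p over all 20 ran from 0.000252 to 0.528 for Sod2 and from 0.00832 to 0.528 for Cat.

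**Figure D2:**
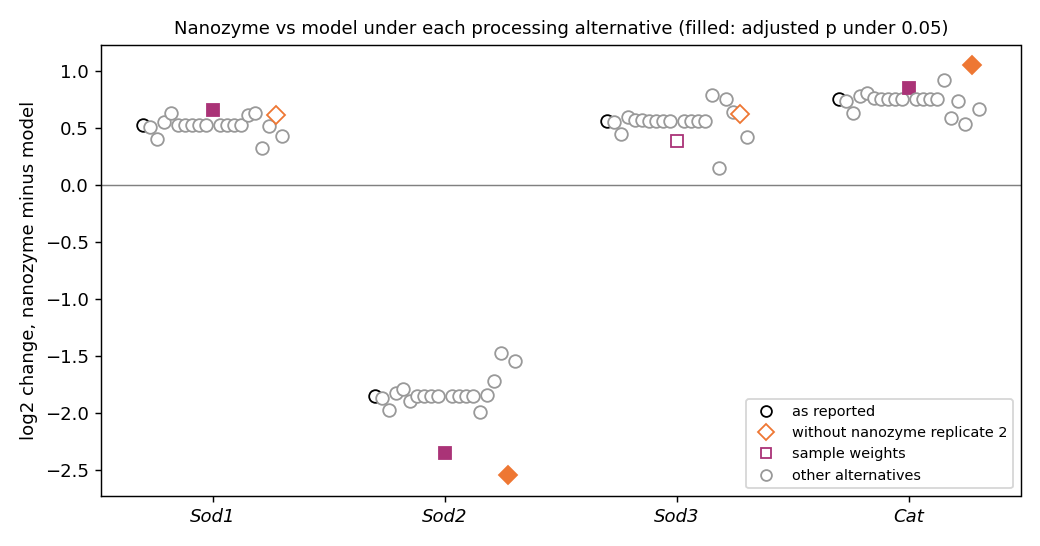
Log2 change of each member in nanozyme minus model lung as reported and under each processing alternative or left-out library, filled where the adjusted p is under 0.05. Sod2 moves to -2.54 and Cat to 1.05 without nanozyme replicate 2 (diamonds), while Sod3 is never filled.

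Against normal lung, none of the 4 members passed, where 8.39% of tested genes were higher and 5.5% lower. Mean Sod2 was 2.06 times higher in nanozyme lung, at 41.0 ± 37.6 against 19.9 ± 0.769 FPKM (0.65, 95% interval -0.48 to 1.78, adjusted p = 0.421). This mean rests on nanozyme replicate 2: without it the change was -0.04 (-0.40 to 0.32, adjusted p = 0.906). Cat was at 0.704 and Sod1 at 0.791 of normal (log2 changes of -0.56 and -0.35, 95% intervals -1.17 to 0.04 and -0.76 to 0.07, adjusted p = 0.193 and 0.237 by limma). For both, every nanozyme library lay below every normal library. Nanozyme and normal libraries did not overlap, in either direction, at 42.9% of tested genes. Sod3 was at 68.5 ± 12.5 against 54.9 ± 11.8 FPKM (0.32, -0.45 to 1.09, adjusted p = 0.566). The model and normal libraries enter 2 comparisons each, so the 3 sets of values are not independent of one another.

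**Figure D3:**
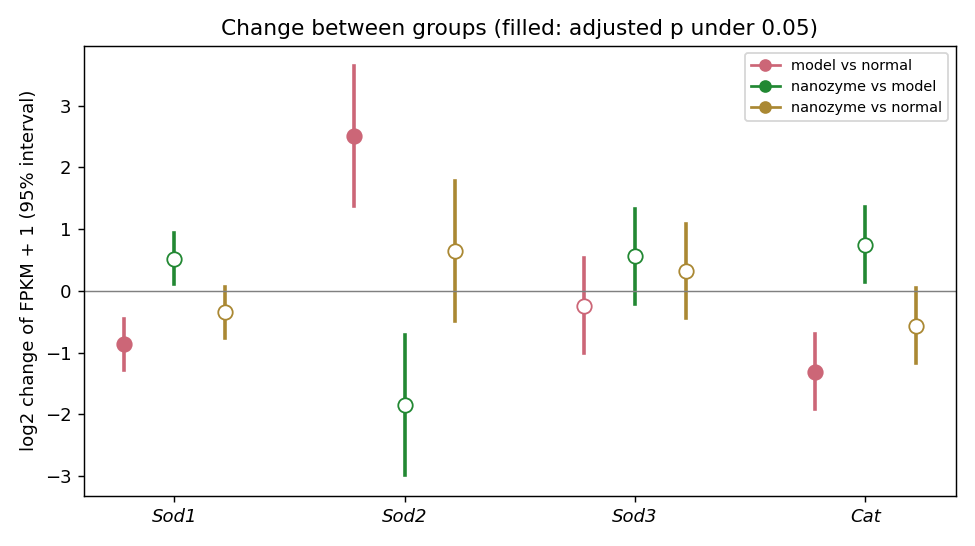
Log2 change of FPKM + 1 with its 95% interval for each member in the 3 comparisons, filled where the adjusted p is under 0.05. Sod2 is highest at 2.50 in model vs normal, and only the Sod1, Sod2 and Cat changes of that comparison are filled.

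Because FPKM is per length, the 3 dismutases can be set against one another. Sod1 made up 85.1% ± 2.24 of the summed superoxide dismutase FPKM in normal lung, Sod3 10.96% ± 2.16 and Sod2 3.98% ± 0.133 (SD, n = 3). In model lung the shares were 58.1% ± 10.1 for Sod1, 12.3% ± 5.39 for Sod3 and 29.6% ± 7.40 for Sod2. The mitochondrial form thus moved from the smallest of the 3 to a share between 22.8% and 37.5%, above Sod3 in each model library. In nanozyme replicates 1 and 3 the share of Sod2 was 4.40% and 4.22%, against 19.2% in nanozyme replicate 2, so that its mean in the group was 9.27% with and 4.31% without that library. The sum of the 3 dismutases changed less than its make-up, with 482 to 513 FPKM in normal, 377 to 423 FPKM in model and 415 to 482 FPKM in nanozyme lung.

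Catalase transcripts were scarcer relative to those of the dismutases in the model. Per 100 FPKM of dismutases there were 26.1 to 29.1 FPKM of Cat in normal and 10.4 to 16.3 FPKM in model lung, without overlap. Nanozyme replicates 1, 2 and 3 had 29.7, 13.7 and 21.5, so that replicate 1 was just above the normal range and replicate 2 in the model range. Cat exceeded Sod2 in every normal library, by 6.55 to 7.10 times, and was at 0.365 to 0.714 of Sod2 in the model libraries and at 6.77, 0.713 and 5.08 times in nanozyme replicates 1 to 3. These ratios are descriptions with no test, and transcript levels do not give enzyme activity.

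The order of the levels changed with them. In normal lung it was Sod1, Cat, Sod3, Sod2, with no overlap between neighbours. In model lung it was Sod1, Sod2, Cat, Sod3, where the values of Cat and Sod3 overlapped and the others did not. In the nanozyme group Sod1 was again highest, and Cat, Sod3 and Sod2 overlapped when replicate 2 was included.

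**Figure D4:**
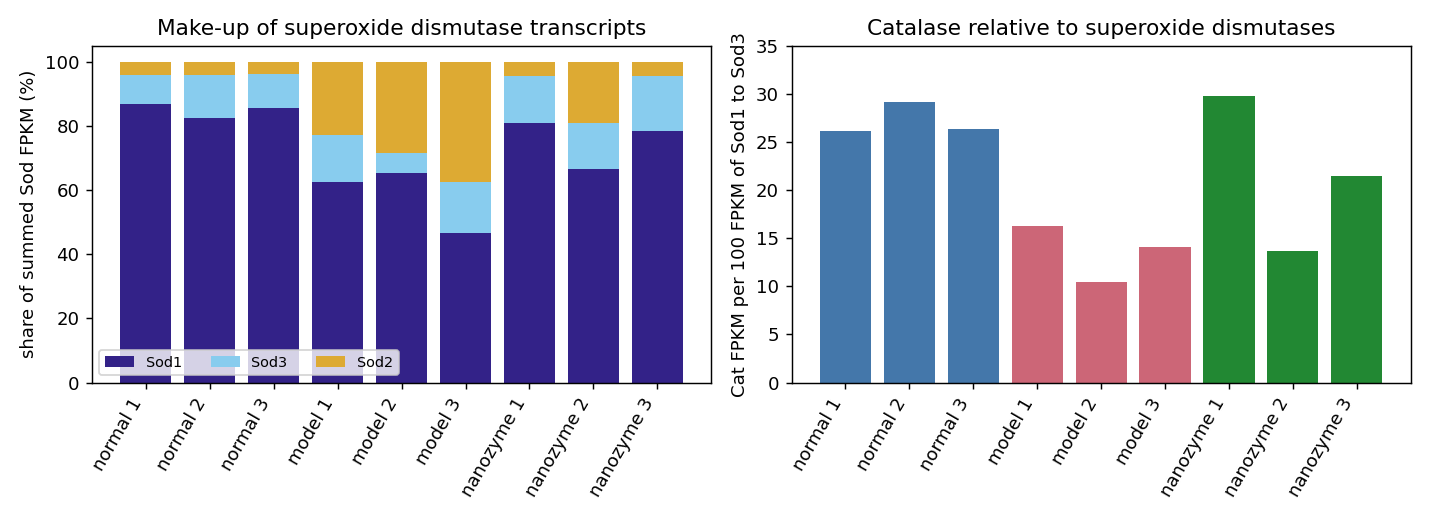
Left, share of Sod1, Sod3 and Sod2 in the summed superoxide dismutase FPKM of each library, in percent; right, Cat FPKM per 100 FPKM of the 3 dismutases, bars from 0 and coloured by group. The Sod2 share lies between 22.8% and 37.5% in the model libraries and at 19.2% in nanozyme replicate 2, and at most 4.40% in the other libraries.

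A list of genes for the supply of copper and manganese and the processing of the dismutases moved unevenly in the model. Of 15 listed genes 14 were tested, 8 rose and 1 fell, with a median change of 0.66. That is 57.1% higher and 7.1% lower, beside 17.4% and 22.7% of all tested genes. The 8 include Furin, which is no metal carrier, and Slc25a37, a mitochondrial iron carrier named here after its values were seen. Ccs, the chaperone that delivers copper to Sod1, was at 22.4 FPKM in normal and 18.1 FPKM in model lung and did not pass (-0.30 ± 0.13, adjusted p = 0.0849). Atox1, which carries copper to the secretory pathway, rose from 69.5 to 119 FPKM (0.73 ± 0.22, adjusted p = 0.0299). The copper-exporting pump Atp7b fell (-1.59 ± 0.24, adjusted p = 0.00205), and the metal-binding metallothionein Mt2 rose from 25.4 to 244 FPKM (3.23 ± 0.47, adjusted p = 0.00185). Furin, a protease of the secretory pathway that cuts many secreted proteins, rose from 23.7 to 65.3 FPKM (1.42 ± 0.19, adjusted p = 0.0014) by limma. No gene of this list passed in either nanozyme comparison with all 9 libraries, and without nanozyme replicate 2 there were 7 lower and 1 higher in nanozyme vs model. Without model replicate 1 the list had 2 lower genes in the model.

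Some other peroxisomal genes were lower in the model. Of 21 tested genes of import and biogenesis, 7 fell and 1 rose in the model (median -0.25), among them the peroxisomal membrane transporters Slc25a17 (-0.81 ± 0.13, adjusted p = 0.00241) and Abcd3 (-0.77 ± 0.13, adjusted p = 0.00274) and the docking factor Pex13 (-0.44 ± 0.10, adjusted p = 0.011). Pex5, the receptor that brings catalase into peroxisomes, was at 11.003, 11.99 and 12.83 FPKM in normal, model and nanozyme lung, and its partner Pex14 at 14.5, 14.1 and 15.3 FPKM, with adjusted p of 0.376 and 0.792 in model vs normal. Of 25 tested enzymes of the peroxisomal matrix (29 listed), 6 fell and 1 rose (median -0.36), which is 24.0% lower and 4.0% higher beside 22.7% and 17.4% of all tested genes, so the share that fell was near the background. For the import list the shares were 33.3% lower and 4.8% higher. Gnpat, of ether lipid synthesis, fell by 0.50 on the log2 scale (adjusted p = 0.00628) and the amino acid oxidase Ddo by 1.42 (adjusted p = 0.00776). The fallen counts are sensitive to the normal libraries: without normal replicate 1 or normal replicate 3 they were 4 and 4 for import and 3 and 2 for the matrix enzymes, and the riser of each list was lost in both fits.

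The level of Cat was also lower relative to these enzymes. Per 100 FPKM of the 25 matrix enzymes summed there were 19.4, 23.9 and 20.9 FPKM of Cat in normal, 12.1, 7.89 and 10.8 FPKM in model and 18.9, 10.8 and 16.9 FPKM in nanozyme lung. In nanozyme vs model no gene of either list passed with all libraries, and without nanozyme replicate 2 there were 1 import gene and 2 matrix enzymes higher and 0 lower.

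Few genes of a list for mitochondrial matrix and mass passed beside Sod2. Of its 24 genes 2 rose and 1 fell in the model, with a median of -0.07. That is 8.3% higher and 4.2% lower, beside 17.4% and 22.7% of all tested genes. The summed level of the 24 was 1580.7 to 1656 FPKM in normal and 1553.7 to 1723.3 FPKM in model lung, so that the groups overlapped. Per 100 FPKM of that sum, Sod2 was at 1.16 to 1.31 FPKM in normal and 5.95 to 9.09 FPKM in model lung, and at 1.14, 5.13 and 1.32 FPKM in nanozyme replicates 1 to 3. The risers were Timm23, of the import channel (0.49 ± 0.15, adjusted p = 0.0309), and citrate synthase Cs (0.28 ± 0.10, adjusted p = 0.0442), and the isocitrate dehydrogenase Idh2 fell (-0.74 ± 0.17, adjusted p = 0.0107). These counts were unstable: 0 rose without normal replicate 2, normal replicate 3 or model replicate 2, 1 without normal replicate 1, model replicate 1 or model replicate 3, and 3 fell without nanozyme replicate 2.

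Of 12 mitochondrial antioxidants, a list that also holds Idh2, Prdx5 and Gpx4, 3 were higher and 4 lower in the model (median -0.14). Over all tested genes 17.4% were higher and 22.7% lower, and nothing particular to the list is read from these counts. Prdx5, a peroxiredoxin of mitochondria, peroxisomes and cytosol, rose from 125 to 614 FPKM (2.17 ± 0.46, adjusted p = 0.00777), and glutathione reductase Gsr rose by 1.06 ± 0.20 (adjusted p = 0.00471). Prdx3, the peroxiredoxin of the mitochondrial matrix, named here after its values were seen, was at 42.2 against 45.6 FPKM (adjusted p = 0.543). Without normal replicate 2 or normal replicate 3 the lower count was 1, and without normal replicate 1, model replicate 1 or model replicate 3 it was 2.

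Among 12 enzymes other than catalase that remove hydrogen peroxide, Prdx5 rose, and Prdx6 and Gpx4 fell in the model (-0.82 ± 0.16 and -0.50 ± 0.15, adjusted p = 0.00581 and 0.0286), with a median of 0.03. Gpx4 is a glutathione peroxidase that acts on lipid peroxides, and Prdx6 a peroxiredoxin abundant in lung. The shares of the list were 8.3% higher and 16.7% lower, beside 17.4% and 22.7% of all tested genes. The lower count was 1 without any of the normal libraries, model replicate 1 or model replicate 3, and 4 without model replicate 2, and the higher count was 2 without model replicate 3.

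Genes that produce superoxide or hydrogen peroxide mostly rose. Of 12 tested genes (15 listed) 7 rose and 4 fell in the model, with a median of 1.97. That is 58.3% higher and 33.3% lower, beside 17.4% and 22.7% of all tested genes. Cybb, the catalytic subunit of the phagocyte NADPH oxidase, rose from 6.52 to 153 FPKM (4.32 ± 0.47, adjusted p = 0.00057), and its partner Rac2 rose by 2.62 ± 0.18 (adjusted p = 0.00011). In nanozyme vs normal 6 of these genes were still higher and 0 lower, including Cybb (2.97, adjusted p = 0.00569). Cybb was at 38.3, 139 and 36.0 FPKM in nanozyme replicates 1 to 3 and at most 6.85 FPKM in normal lung. In nanozyme replicates 1 and 3 Cybb was above the normal range and below the model range of 107 to 179 FPKM. Sod2 was there at 18.3 and 20.4 FPKM, near the normal range, and any link of Cybb to Sod2 was not tested. Without nanozyme replicate 1 there were 2 genes of the list lower against normal, and without nanozyme replicate 2 there were 5 higher and 6 lower in nanozyme vs model.

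Regulators named in textbooks for these enzymes were split in the model, with 8 of 20 tested higher and 4 lower (23 listed, median 0.27). That is 40.0% higher and 20.0% lower, beside 17.4% and 22.7% of all tested genes. Nfkb2, an NF-kB subunit gene that is itself induced by the pathway, rose from 14.7 to 65.1 FPKM (2.07 ± 0.34, adjusted p = 0.00297), and Nfkb1 rose by 0.75 ± 0.17 (adjusted p = 0.0103). Nfkb2 was at 20.4, 57.6 and 21.0 FPKM in nanozyme replicates 1 to 3, with replicate 2 apart as for Sod2. This was not particular to these genes: Slc25a37 was at 10.4, 40.41 and 14.07 FPKM in the same libraries. Other genes did not split in this way, such as Pex14 at 15.48, 14.32 and 15.97 FPKM. Any link of Nfkb2 or NF-kB to the level of Sod2 was not tested. The hypoxia factor Hif1a rose by 1.44 ± 0.23 (adjusted p = 0.00262), and Ppargc1a, a coactivator of mitochondrial genes, fell from 2.07 to 0.429 FPKM (-1.09 ± 0.17, adjusted p = 0.0021). Nfe2l2, encoding NRF2, and Foxo3, a factor named for Sod2 and Cat, did not pass by limma (0.30 ± 0.17 and -0.31 ± 0.15, adjusted p = 0.176 and 0.122). Of the same family Foxo4, named here after its values were seen, fell from 20.3 to 9.59 FPKM (-1.02 ± 0.21, adjusted p = 0.00626 by limma). Foxo1 did not pass (-0.52 ± 0.22, adjusted p = 0.0908 by limma). In nanozyme vs normal 2 regulators were lower and 0 higher, Ppargc1a (-0.93, adjusted p = 0.00957) and the mitochondrial deacetylase Sirt3, named here after its values were seen (-0.75, adjusted p = 0.0174). That lower count was 1 without normal replicate 1, normal replicate 3 or nanozyme replicate 1, and 2 genes were higher without nanozyme replicate 2. In nanozyme vs model without that library, 9 regulators were lower and 3 higher.

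**Figure D5:**
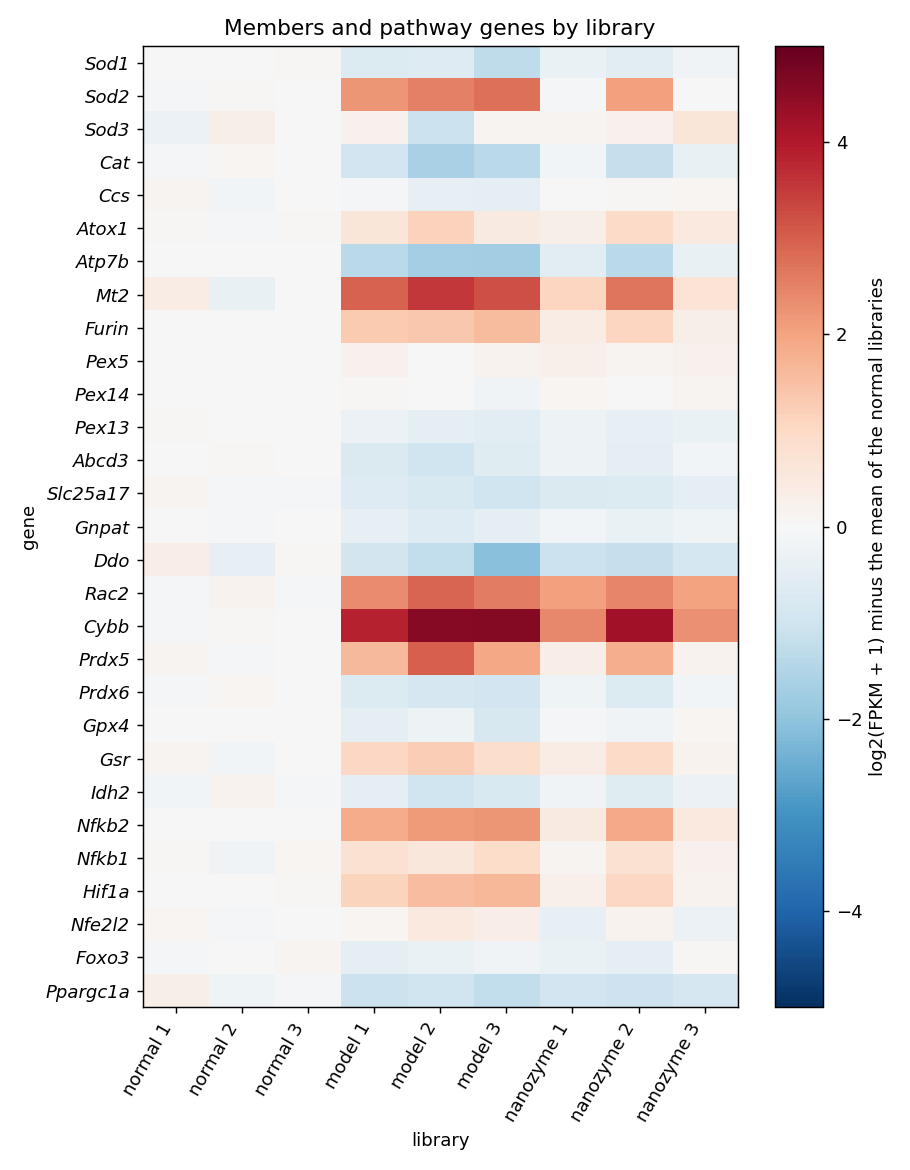
Log2(FPKM + 1) minus the mean of the normal libraries, by colour, for the members and named pathway genes (rows) in each library (columns). Sod2, Mt2, Cybb, Prdx5 and Nfkb2 are red in the 3 model libraries and in nanozyme replicate 2, where Cat is blue.

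In whole lung, fewer cells of a type and less RNA per cell cannot be told apart, and markers of several cell types moved along with the members. The counts of this and the other marker lists in the model stand beside 17.4% higher and 22.7% lower over all tested genes. Of 12 tested neutrophil markers 11 rose in the model and 0 fell. Their summed level over the 14 listed was 128 to 416 FPKM in normal and 6469 to 8910 FPKM in model lung, with Ly6g, Elane and Mpo listed at 0 in all normal libraries. In nanozyme replicates 1, 2 and 3 the sum was 1420, 6886 and 1855 FPKM. Lcn2 was the largest part of each model sum, at 3887 to 5412 FPKM, and was at 257, 3526 and 470 FPKM in these nanozyme libraries. S100a8 was at 847 to 1218 FPKM in model lung and at 400, 1189 and 482 FPKM in the same nanozyme libraries. Most of the spread of the normal sums came from Ltf, at 8.01 to 300 FPKM there, which did not pass. In nanozyme replicates 1 and 3 Sod2 was near its normal level, and their neutrophil sums were above every normal and below every model library. Of 15 monocyte-derived macrophage markers 12 rose and 0 fell, with sums of 365 to 634 FPKM in normal, 1411 to 1799 FPKM in model and 876 to 1508 FPKM in nanozyme lung. The part of these cells in the rise of Sod2 was not tested.

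Club, ciliated and red cell markers mostly fell in the model, and most alveolar markers did not pass. Of 10 club cell markers 7 fell and 0 rose in the model, with sums of 77680 to 82350 FPKM in normal, 7899 to 19630 FPKM in model and 21910 to 32400 FPKM in nanozyme lung. Of 12 alveolar type 2 markers 4 fell and 1, Lyz2, rose. Their sums were 29650 to 37340 FPKM, 20210 to 21670 FPKM and 29590 to 38380 FPKM in the same order. Lyz2 is part of these sums, at 3695 to 4557 FPKM in normal and 6839 to 9547 FPKM in model lung. In nanozyme replicates 1, 2 and 3 Lyz2 was at 5855, 9726 and 6472 FPKM. The sums thus hide part of the lower total of the other markers in model lung and nanozyme replicate 2. Sftpc, 1 of the 4 that fell, was at 19850 to 25070 FPKM in normal and 6177 to 8900 FPKM in model lung. It was at 18320, 13410 and 25160 FPKM in nanozyme replicates 1 to 3. Without normal replicate 2 or normal replicate 3 the type 2 counts were 2 lower and 0 higher, the riser was also lost without normal replicate 1, and 2 rose without nanozyme replicate 2. Of 12 ciliated cell markers 10 fell and 0 rose, with sums of 1048 to 1674 FPKM in normal, 402 to 663 FPKM in model and 606 to 767 FPKM in nanozyme lung. Of 11 alveolar type 1 markers 4 fell and 1 rose, with sums of 2656 to 3249 FPKM, 1683 to 2192 FPKM and 2199 to 3409 FPKM in the same order. Without normal replicate 2, normal replicate 3 or model replicate 2 the type 1 lower count was 2, and without nanozyme replicate 2 it was 8. Cardiac muscle transcripts, of which 6 of 9 tested fell and 0 rose, summed to 149 to 897 FPKM in normal, 10.8 to 96.9 FPKM in model and 19.2 to 269.7 FPKM in nanozyme lung. Their lower count was 2 without normal replicate 1 or model replicate 3, and 3 without normal replicate 3. Red cell transcripts, of which all 6 tested fell, summed to 3531 to 4255 FPKM in normal and 173 to 320 FPKM in model lung. In nanozyme replicates 1, 2 and 3 the red cell sums were 791, 390 and 132 FPKM, and Cat was at 124, 60.1 and 104 FPKM. The red cell sum of nanozyme replicate 3 was the lowest of all 9 libraries. The part of any of these cells or transcripts in the falls of Cat and Sod1 was not tested.

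Sod3 was lowest in the library with the lowest vessel and fibroblast markers, but the other model libraries did not follow this. In model replicates 1 and 3 the endothelial sums were 1273 and 1123 FPKM and the fibroblast sums 1458 and 1256 FPKM. These were below every normal library (fibroblast sums of 2567 to 3258 FPKM there), while Sod3 was within its normal range. In model replicate 2, where Sod3 was at 25.2 FPKM, the summed endothelial markers (645 FPKM) and resident fibroblast markers (596 FPKM) were the lowest of the 9 libraries. Over the groups the endothelial sums were 1526 to 1810 FPKM in normal, 645 to 1273 FPKM in model and 1181 to 1853 FPKM in nanozyme lung, with 6 of 14 markers lower and 0 higher in the model (2 lower without any single normal library, 1 without model replicate 2). Of 15 fibroblast markers 9 fell and 0 rose (5 lower without normal replicate 3 or model replicate 2, and 1 higher without the latter). Smooth muscle and pericyte markers, 7 of 14 of which fell and 0 rose, summed to 389 to 555 FPKM in normal and 151 to 231 FPKM in model lung. In model replicates 1, 2 and 3 Sod3 was at 62.7, 25.2 and 59.9 FPKM with smooth muscle sums of 231, 151 and 153 FPKM. The sum of model replicate 2 was again the lowest of the 9 libraries. The part of these cells in the level of Sod3 was not tested.

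The genes whose pattern over the 9 libraries was most like each member were taken from 14128 tested genes by Pearson's r of log2(FPKM + 1). The libraries fall into groups that differ at many genes, which such an r mostly carries, so it is given as a description. Closest to Sod2 were Dnajb11, a chaperone of the endoplasmic reticulum (r = 0.996), the serotonin receptor gene Htr7 (0.996, at a mean of 0.868 FPKM over all libraries), the kinase gene Nek6 (0.995), Mab21l3 (0.994) and the proteasome activator gene Psme2b (0.993), the last uncertain because it has a near-identical relative. Closest to Cat were Wwc1 (0.996), Fam129b (0.995), Lgalsl (0.994), Csgalnact2 (0.994, of chondroitin sulphate synthesis) and Rassf3 (0.993). Wwc1 was at 80.5 FPKM in normal, 35.4 FPKM in model and 61.8 FPKM in nanozyme lung, close to the proportions of Cat.

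Closest to Sod1 were Rabac1 (r = 0.990), Naxe, which repairs damaged nicotinamide cofactors (0.989), Bod1 (0.988), Txndc15 (0.985) and the mitochondrial glutaredoxin Glrx5 (0.983). Rabac1 was at 301, 191 and 254 FPKM in normal, model and nanozyme lung. Likeness to Sod3 was weaker, with Ddx23 (0.964), the vessel-associated gene Igfbp7 (0.961), the endothelial receptor Robo4 (0.955), Mlc1 (0.952) and Zfp579 (0.952), and none of these 5 passed in any of the 3 comparisons.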

How the data were processed

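Total RNA from the lungs of 9 mice was extracted with TRIzol, enriched with oligo(dT) beads and made into strand-marked libraries, per the labels' protocols. HISAT2 and the build GRCm38 are named in the submitters' processing notes. The counting tool, annotation, filters and versions are not given in the sources used here. The authors deposited FPKM values, 1 column per library. Whole reads could not be recovered from the low values (fullest bin of their ratios at most 4.42%), so depth is unknown. Of 25526 names 21437 matched GENCODE vM21.

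Genes with FPKM of at least 1 in at least 3 of 9 libraries were tested on log2(FPKM + 1), which understates changes of low genes, with limma 3.58.1 (R 4.3.3): all 9 libraries in 1 fit, intensity trend, two-sided, Benjamini-Hochberg adjustment at 0.05 over 14540 genes within each comparison. An exact permutation test of 3 against 3 cannot give a p below 0.1 and was not run. Gene lists (21) are described by counts and medians, with no set test. Named genes are the members, up to 3 called genes per list by adjusted p with a few set regulators and partners, and the 5 most alike genes per member, and the text gives a selection, since some are not reported here. The members, lists and alternatives were chosen with earlier results of these data known. On simulated data with 200 changed genes among 14540, the tests recovered 71.0% at a log2 change of 1 and 93.0% at 2 in model vs normal. The shares were 60.0% and 89.0% in nanozyme vs model and 69.0% and 86.0% in nanozyme vs normal. False calls were 9, 4 and 9 in the same order. The simulated noise was independent between genes and libraries and holds no shift like that of nanozyme replicate 2. Recovery in the nanozyme comparisons of the real data can therefore be lower. Promoter sequences are from RefSeq, GRCm38.p6. Figures used matplotlib 3.10.9 and Python 3.11.15.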

Additional observations from a re-analysis of the deposited data

How the results depend on the processing

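Each result was recomputed under 20 alternatives: other pseudocount, filters, scalings, fits and weights, a replicate block, and each of the 9 libraries left out. Sod1, Sod2 and Cat kept direction and call in model vs normal under all of them, with log2 changes of -1.17 to -0.67, 2.37 to 2.65 and -1.53 to -1.15. Sod3, which did not pass, turned to 0.0141 with sample weights, and ran from -0.46 to 0.18 over the left-out libraries. In nanozyme vs model, sample weights gave -2.35, 0.85 and 0.65 for Sod2, Cat and Sod1, and left-out libraries gave -2.54 to -1.47 for Sod2 and 0.54 to 1.05 for Cat. In nanozyme vs normal, left-out libraries gave -0.0404 to 1.03 for Sod2. The cause of these differences was not tested.

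Counts moved more. In model vs normal 3299 genes were lower as reported, 2152 with a filter at a mean FPKM of 5, which tests fewer genes, and 1920 to 3836 over the left-out libraries. In nanozyme vs model, where 0 passed in either direction, no filter gave 1 higher and 3 lower, sample weights 1308 and 1211, and left-out libraries 0 to 1814 and 0 to 1402. In nanozyme vs normal 1220 were higher and 800 lower as reported, 807 and 478 with the stricter filter and 2608 and 2045 with sample weights, 1306 lower with quantile normalization, and 600 to 1353 and 148 to 917 over the left-out libraries. Median-of-ratios scaling moved the median of all genes by 0.12 in model vs normal and -0.10 in nanozyme vs model, and leaving 100 top genes out of the scaling by -0.11 in model vs normal. The higher share of the calls in model vs normal was 43.4% as reported, 54.2% with equal column sums, 55.3% with median-of-ratios scaling and 32.9% without the 100 most abundant genes. In nanozyme vs normal it was 60.4% as reported, 47.3% without those genes and 46.8% with quantile normalization. Same-numbered libraries of different groups did not deviate together, with correlations from -0.331 to 0.227, so the replicate block pairs numbers only. With the block 2402 genes were higher and 3226 lower in model vs normal, 0 in nanozyme vs model, and 1117 and 617 in nanozyme vs normal, and it changed the call of no member.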
